A study of Mus musculus with 12 samples.

Results

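The 10 genes described here encode proteins that copy, package and transcribe the mitochondrial genome, or regulators of the nuclear genes that do so. They were taken by name from the deposited gene table: Polg, Polg2, Ssbp1, Tfam, Tfb2m, Polrmt, Nrf1, Gabpa, Ppargc1a and Ppargc1b, which are 10 of its 23997 rows. The study measured RNA in cumulus cells, the somatic granulosa-derived cells that surround the oocyte, from C57BL/6J female mice that were wild type (WT) or lacked Clpp (ClpP-/-, here KO). ClpP is a protease of the mitochondrial matrix. There were 4 groups of 3 mice each: WT at 3 months, KO at 3 months, WT at 6 months and KO at 6 months. WT and KO mice alike were injected with PMSG (5 IU), a gonadotropin that drives follicles to grow. RNA of 100 cells per mouse was turned into 1 library by Smart-Seq2, a method that amplifies cDNA from few cells. The labels give collection 44 h after PMSG in one place and 48 h in another. They do not say how the Clpp allele was made or whether it was absent from all tissues. Values are FPKM, fragment numbers scaled for transcript length and sequencing depth, as the authors deposited them.

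Mitochondrial DNA is a small circular genome present in many copies per cell. Its replisome holds DNA polymerase gamma, made of the catalytic subunit Polg and the accessory subunit Polg2, and the single-strand binding protein Ssbp1. Transcription needs the RNA polymerase Polrmt, the promoter-melting factor Tfb2m and Tfam, which also packs the DNA into nucleoids. All these proteins come from nuclear genes, many of which are bound by Nrf1 and by GABP, whose DNA-binding subunit is Gabpa; Ppargc1a and Ppargc1b encode the coactivators PGC-1alpha and PGC-1beta, which act on such factors when a cell increases its mitochondria. Growing oocytes build up a large store of mitochondrial DNA, and cumulus cells supply them with metabolites.

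Clpp itself stood at 121 ± 29.9 FPKM (mean and SD, n = 3) in 3-month WT, 3.27 ± 2.95 in 3-month KO, 122 ± 7.59 in 6-month WT and 2.91 ± 2.99 in 6-month KO, and each KO library was below each WT library (limma adjusted p = 0.00872 at 3 months and 0.00279 at 6 months). The granulosa markers fixed for this check were all detected, with a summed level of 2985 to 8107 FPKM per library. Inha made up much of that sum, at 2419 to 6334 FPKM. Slc38a3 and Foxl2 were the only granulosa markers that fell under 1 FPKM, down to 0.0327 and 0.582 in 3-month WT libraries. Markers of other cells were not even across libraries. In the third library of each group, the 10 blood and leukocyte markers summed to between 767 and 1386 FPKM, against 5.81 to 71.1 in the other 8 libraries. The make-up of these sums differed. Hbb-b1 was at 448 FPKM in the third 3-month WT library and 14 in the third 6-month KO library, and Lyz2 was at 4.72 and 397. Alas2, of the same list, was not highest in the third library of any group. For the 10 theca and stromal markers, the third KO libraries had sums of 1261 FPKM (3 months) and 1563 (6 months), while the remaining 10 libraries ranged from 4.41 to 169. The same 2 libraries had the largest oocyte marker sums, 60 FPKM at 3 months and 251 at 6 months, with 1.35 to 16.8 elsewhere, and the 6 endothelial markers summed to 4.18 to 24.3. No marker of these lists was at 0 in all libraries. Between 9335 and 10861 genes reached 1 FPKM per library, and the relative depth read from the smallest values ranged from 0.64 to 1.0 of the deepest library. Rows with names of small RNAs (microRNA, snoRNA, snRNA and similar) took 25.67% of the summed FPKM in the first 3-month WT library, 31.96% in the third 3-month KO library and 37.45% in the third 6-month KO library, while the remaining 9 libraries had 0.26% to 6.81%. The summed FPKM ranged from 627194 to 1366495 per library, the highest being that of the third 6-month KO library.

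Across the 12 libraries, Ssbp1 was the most abundant of the 10 transcripts per length, with a mean of 138 FPKM, and it stood 8.14-fold above the next, Tfb2m, with the order kept in 12 of 12 libraries. Tfb2m had a mean of 17 FPKM and Tfam 15.5, and Tfb2m exceeded Tfam in 8 libraries. Gabpa (9.4 FPKM) and Nrf1 (9.05) followed, each the higher of the pair in 6 libraries, so they had no order. Tfam was above Gabpa in 12 of 12. Polg2 had a mean of 5.08 FPKM and exceeded Polg (3.28) in 8 libraries, and Polg exceeded Polrmt (1.66) in 11. Both PGC-1 genes were at the bottom, with every library but 1 under 1 FPKM. Of the 8 others, Tfam varied least over the 12 libraries, with a coefficient of variation of 23.4%, and Polrmt most, with 53.7%.

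**Figure D1:**
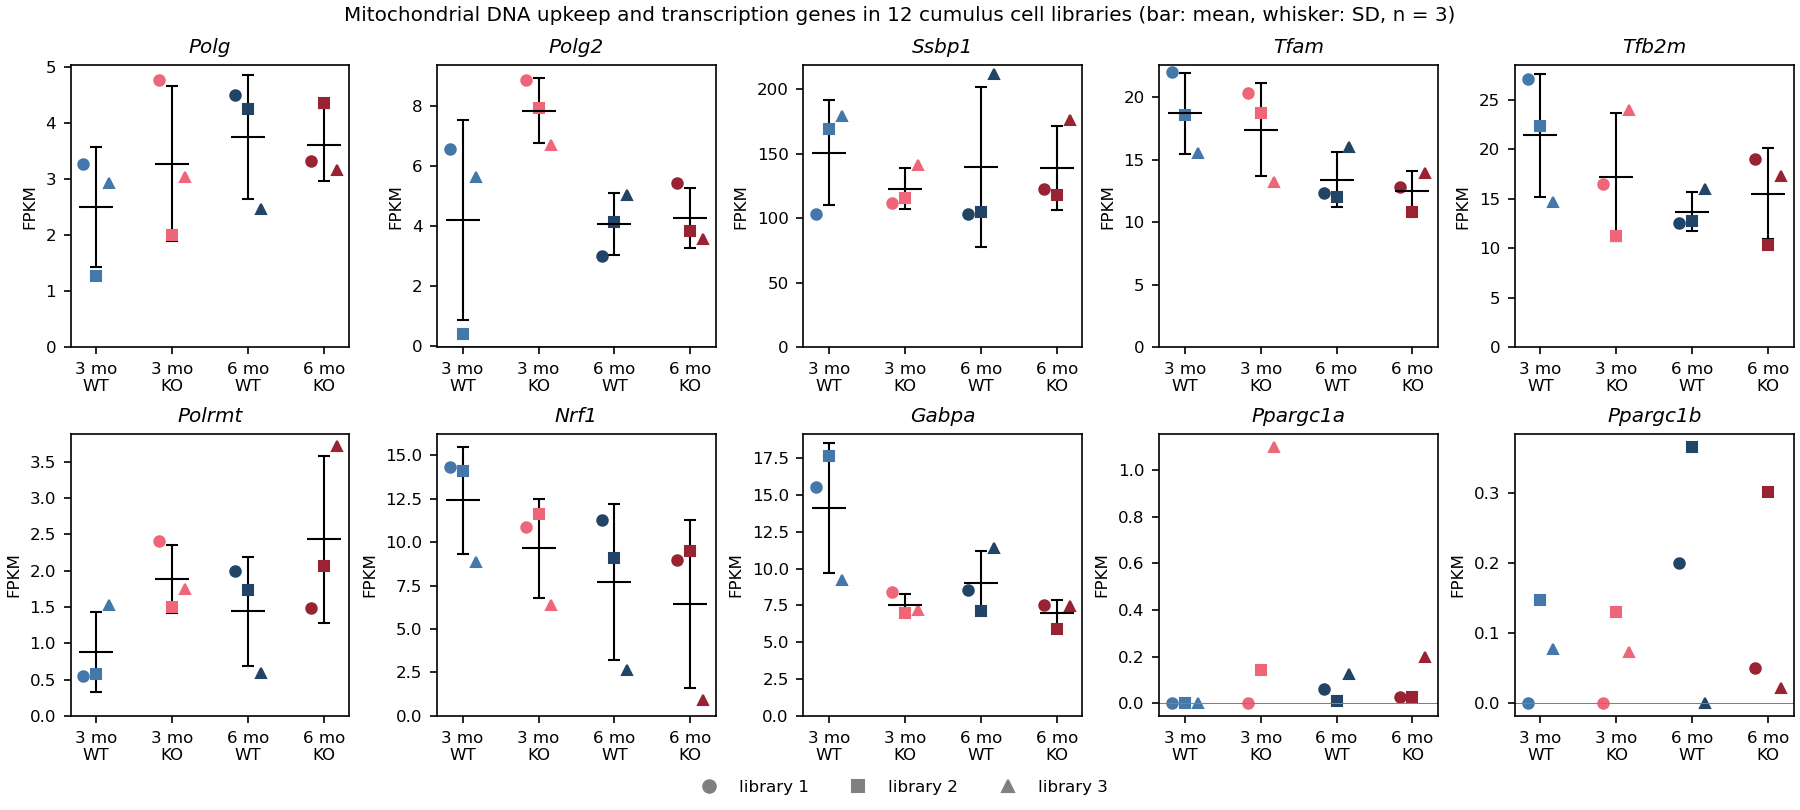
FPKM of each of the 10 genes by group (3-month WT, 3-month KO, 6-month WT, 6-month KO), on a linear axis that includes 0 in each panel; each symbol is 1 library, its shape gives the library number, and for the 8 tested genes the bar and whisker are the mean and SD of 3 libraries. The 3-month KO libraries of Polg2 lie between 6.7 and 8.87 FPKM, those of Gabpa between 6.96 and 8.38, and Nrf1 is lowest in library 3 of each group.

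The genes were tested with limma on log2(FPKM + 1) over the 11196 genes that reached 1 FPKM in at least 3 libraries, with p-values adjusted over all of them by the Benjamini-Hochberg method. 8 of the 10 genes entered the test, and Ppargc1a and Ppargc1b did not. Differences below are on this log2 scale, which understates the change of low genes, and each library came from a separate mouse. No member passed an adjusted p of 0.05 in any of 6 comparisons. For KO against WT at 3 months, 0 of 8 passed, beside 0.00893% of all tested genes (1 gene). At 6 months it was 0 of 8, beside 0.0268%, and for KO against WT averaged over both ages 0 of 8, beside 0.0179%. For the difference of the KO effect between the ages it was 0 of 8, beside 0.00893%. For 6 against 3 months it was 0 of 8 in WT, beside 0.00893%, and 0 of 8 in KO, beside 0.0179%. The whole table thus has almost no calls at this sample size, and the members' count reads the same as the background.

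At an unadjusted p under 0.05 the count was 1 of 8, Gabpa, for KO against WT at 3 months, where 6.8% of all tested genes were under that value. It was 0 of 8 at 6 months, beside 1.22%, and 1 of 8, again Gabpa, for the average over both ages, beside 5.96%. It was 0 of 8 for the difference of the KO effect between the ages, beside 2%, 0 of 8 for age in WT, beside 7.44%, and 0 of 8 for age in KO, beside 6.48%. Groups whose libraries did not overlap were found for 2 of 8 members at 3 months, Polg2 and Gabpa, beside 10.2% of all tested genes. They were found for 0 of 8 at 6 months, beside 6.8%, for 0 of 8 with age in WT, beside 15.7%, and for 1 of 8 with age in KO, Polg2, beside 12.8%. With 0 to 2 members in each, these counts are too few to set apart from the background.

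The median difference of the 8 members for KO against WT was -0.18 at 3 months, where 3 were higher and 5 lower, and 0.02 at 6 months, where 4 were higher and 4 lower. All tested genes had a median of 0.01 in both comparisons, with 48.7% and 48.5% of them below 0. For 6 against 3 months the members' median was -0.30 in WT and -0.11 in KO, with 3 higher and 5 lower in each, beside medians of 0.03 and 0.01 for all genes. These comparisons share groups, so their values are not independent of each other. In bulk RNA of this kind, fewer cells of a type and less RNA per cell cannot be told apart.

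**Figure D2:**
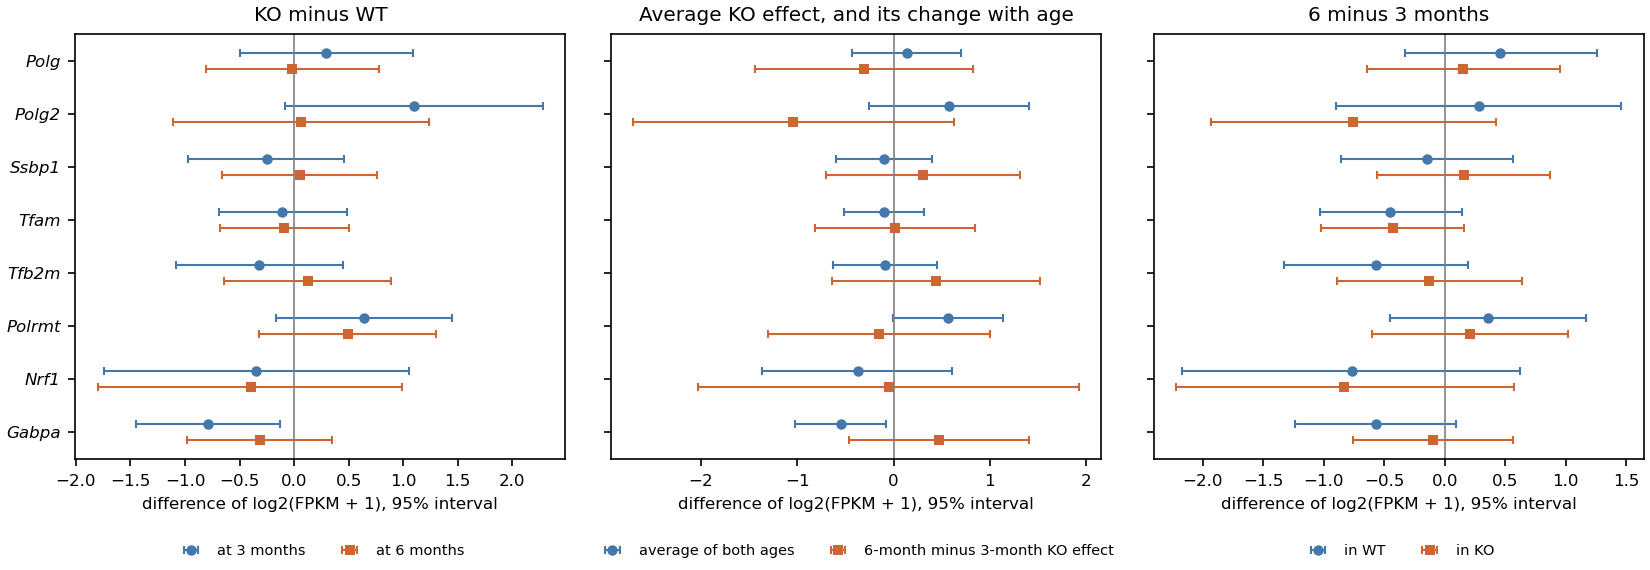
Log2 differences, on the log2(FPKM + 1) scale, with 95% intervals from limma for the 8 tested genes: KO minus WT at 3 and 6 months, the average and the difference of these effects, and 6 minus 3 months in WT and in KO. Gabpa at 3 months (-0.79) and its average over both ages (-0.55) have intervals that leave out 0; the interval of Polg2 at 3 months (1.10) reaches from -0.08 to 2.28.

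Among the replisome genes, Polg2, the accessory subunit that helps the polymerase stay on its template (chromosome 11, 106768253 to 106779537, GRCm38, minus strand), had the largest KO minus WT difference at 3 months. Its levels were 6.55, 0.376 and 5.63 FPKM in the 3-month WT libraries and 8.87, 7.91 and 6.7 in the 3-month KO libraries. Its levels at 6 months were 2.98, 4.13 and 5.03 FPKM among WT libraries and 5.41, 3.83 and 3.54 among KO libraries. The 3-month KO libraries were the highest 3 of all 12, above each WT library of their age and each older KO library, and the 6-month groups overlapped. The KO minus WT difference at 3 months was 1.10 ± 0.54 (SE; 95% interval -0.08 to 2.28, limma adjusted p = 0.747). It rested largely on the second 3-month WT library, at 0.376 FPKM, and was 0.31 without that library. The same difference at 6 months was 0.06 (adjusted p = 1), and the difference between these effects was -1.04 ± 0.76 (SE; interval -2.70 to 0.63, adjusted p = 1). That difference was -0.25 without the second 3-month WT library and -1.48 without the first. With age, KO libraries differed by -0.76 ± 0.54 (adjusted p = 0.779).

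Polg, the catalytic subunit (chromosome 7, 79446231 to 79466362, minus strand), had 3.28, 1.28 and 2.93 FPKM in 3-month WT and 4.77, 2.01 and 3.05 in 3-month KO. It had 4.51, 4.26 and 2.47 FPKM in 6-month WT and 3.33, 4.36 and 3.17 in 6-month KO. The groups overlapped throughout. KO minus WT was 0.29 ± 0.37 (SE, adjusted p = 0.882) at 3 months and -0.02 (adjusted p = 1) at 6 months. The 3-month value was 0.01 without the second WT library and 0.52 without the second KO library. The ratio of Polg2 to Polg, both in FPKM and so per length, was 2.0, 0.295 and 1.92 in 3-month WT, 1.86, 3.93 and 2.2 in 3-month KO, 0.661, 0.971 and 2.04 in 6-month WT and 1.63, 0.878 and 1.11 in 6-month KO. It was above 1 in 8 of 12 libraries. The mean log2 ratio of (FPKM + 1) was 0.63 in KO and 0.19 in WT, a difference of 0.44 that did not pass a two-sided exact permutation test within ages (p = 0.255, 400 arrangements, smallest possible p = 0.005).

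Exons of both genes overlap a gene on the other strand, and Smart-Seq2 reads do not mark the strand. Polg shares 921 bases with Fanci, a DNA crosslink repair gene, and Polg2 shares 132 bases with Milr1, a mast cell receptor gene. Milr1 was at 0.0496, 2.44 and 2.83 FPKM in 3-month WT and 0.237, 0.156 and 4.05 in 3-month KO. Fanci had 2.16, 0.478 and 0.771 FPKM in 3-month WT and 7.21, 3.87 and 0 in 3-month KO. How much of the Polg and Polg2 values comes from the shared bases was not tested.

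Ssbp1, which coats single-stranded mitochondrial DNA during copying (chromosome 6, 40471352 to 40484700, plus strand), ranked at the 95.2nd percentile of all detected rows. Its levels were 103, 169 and 179 FPKM in 3-month WT and 112, 116 and 141 in 3-month KO. At 6 months they were 103, 105 and 212 FPKM among WT libraries and 123, 118 and 176 among KO libraries. The groups overlapped at both ages, and library 3 was the highest in each group. KO minus WT was -0.25 ± 0.33 (SE, adjusted p = 0.884) at 3 months and 0.05 (adjusted p = 1) at 6 months. The 3-month value was -0.50 without the first WT library and -0.11 without the third.

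The transcription genes were at intermediate to low levels. Tfam (chromosome 10, 71225464 to 71238280, minus strand) had 22, 18.6 and 15.5 FPKM in 3-month WT and 20.3, 18.7 and 13.2 in 3-month KO. It had 12.3, 12 and 16 FPKM in 6-month WT and 12.8, 10.8 and 13.9 in 6-month KO. WT and KO lay over each other at both ages, and the 6-month libraries were mostly under the 3-month ones, with 1 library of each genotype inside the younger range. KO minus WT was -0.11 ± 0.27 (SE; interval -0.69 to 0.48, adjusted p = 0.952) at 3 months and -0.09 ± 0.27 (interval -0.68 to 0.50, adjusted p = 1) at 6 months. The age difference was nearly the same size in both genotypes, -0.45 ± 0.27 in WT (interval -1.03 to 0.14, adjusted p = 0.725) and -0.43 ± 0.27 in KO (interval -1.02 to 0.16, adjusted p = 0.761).

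Tfb2m (chromosome 1, 179528055 to 179546267, minus strand) had 27.1, 22.3 and 14.7 FPKM in 3-month WT and 16.5, 11.2 and 24 in 3-month KO. It had 12.5, 12.7 and 16 FPKM in 6-month WT and 19, 10.3 and 17.3 in 6-month KO. The groups overlapped. The KO minus WT difference was -0.32 ± 0.35 (SE, adjusted p = 0.865) at 3 months and 0.13 (adjusted p = 1) at 6 months. The 3-month value was -0.06 without the second KO library and -0.58 without the third. The WT libraries differed by -0.57 ± 0.35 with age (adjusted p = 0.726) and the KO libraries by -0.13 (adjusted p = 0.947). Tfb1m, the paralog that methylates mitochondrial ribosomal RNA, had 10.5, 11.3 and 8.48 FPKM in 6-month WT and 14.2, 14.9 and 14.1 in 6-month KO, groups that did not overlap, with a difference of 0.48 ± 0.36 (adjusted p = 1).

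Polrmt, the polymerase itself (chromosome 10, 79736123 to 79746581, minus strand), was the lowest of the 8. It had 0.549, 0.574 and 1.52 FPKM in 3-month WT and 2.41, 1.5 and 1.75 in 3-month KO. It had 2, 1.73 and 0.588 FPKM in 6-month WT and 1.49, 2.07 and 3.71 in 6-month KO. The 3-month groups overlapped by 1 WT library, and the highest value of all was in the third 6-month KO library, one with many theca and oocyte transcripts. KO minus WT was 0.64 ± 0.37 (SE; interval -0.17 to 1.45, adjusted p = 0.774) at 3 months and 0.49 ± 0.37 (adjusted p = 1) at 6 months. Over both ages it was 0.57 ± 0.26 (interval -0.01 to 1.14, unadjusted p = 0.0528, adjusted p = 0.783). These sizes depended on the handling of low values and on a few libraries: with a pseudocount of 0.1 the 3-month value was 1.13 and the average 0.95, and without the 3 libraries highest in markers of other cells the 6-month value was -0.05 and the average 0.31.

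Promoter sequences of 9 of the 10 genes, from 250 bases before to 50 bases after the RefSeq start site (GRCm38.p6), were searched on both strands for a core GABP motif, CCGGAAG (reverse CTTCCGG), and an NRF1 motif, GCGCANGCG (reverse CGCNTGCGC). The GABP core was in 6 of the 9, against 8.86% of 32851 mouse promoter windows of that length, and the NRF1 motif in 2 of the 9, against 6.25%. A match is a description of the letters and not of a bound site. ERR (TCAAGGTCA) and CREB (TGACGTCA) motifs, found in 0.423% and 1.79% of windows, were not in these windows. The 30 bases around a match are shown because 6 members hold the searched core and Gabpa had the smallest p among the members. Whether the matches bear on the Gabpa difference was not tested. Each is written 5′ to 3′ on the gene's strand with the motif in capitals.
Tfam, GABP, chr10:71238073-71238102 (-), first base at -47: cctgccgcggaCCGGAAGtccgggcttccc
Polrmt, GABP, chr10:79746606-79746635 (-), first base at -43: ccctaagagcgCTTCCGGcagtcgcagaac
Polg, GABP, chr7:79466293-79466322 (-), first base at -38: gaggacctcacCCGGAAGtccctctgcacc
Polg2, GABP, chr11:106779548-106779577 (-), first base at -29: cgggtgacgctCTTCCGGgggcgtggtcta
Ssbp1, GABP, chr6:40471410-40471439 (+), first base at -47: ggctccgtgcgCCGGAAGcgagccgctggc
Gabpa, GABP, chr16:84835020-84835049 (+), first base at -93: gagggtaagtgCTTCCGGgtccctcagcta
Tfb2m, NRF1, chr1:179546245-179546274 (-), first base at +13: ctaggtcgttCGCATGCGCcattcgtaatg
Polrmt, NRF1, chr10:79746567-79746596 (-), first base at -5: ctgcaggcggCGCGTGCGCgtgcgcactgc
Positions are those of the first base of the motif, counted from the RefSeq start site. In 5 of the 6 GABP matches the motif began within 47 bases before the RefSeq start. The gene spans given here are from another annotation, GENCODE. The GABP stretches of Tfam, Polg, Ssbp1 and Gabpa lie inside those spans, so their place before the start depends on the annotation. Polrmt held a GABP match and 2 NRF1 matches that overlap each other, of which 1 is shown.

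Gabpa, the DNA-binding subunit of GABP (chromosome 16, 84834925 to 84863779, plus strand), had 15.5, 17.6 and 9.2 FPKM in 3-month WT and 8.38, 6.96 and 7.16 in 3-month KO. It had 8.53, 7.1 and 11.4 FPKM in 6-month WT and 7.52, 5.88 and 7.48 in 6-month KO. The first and second 3-month WT libraries stood above the other 10, which ran from 5.88 to 11.4, and the 3-month groups did not overlap. KO minus WT at 3 months was -0.79 ± 0.30 (SE; interval -1.45 to -0.13, unadjusted p = 0.0237), which did not pass adjustment (limma adjusted p = 0.702; 0.253 to 1 over the alternatives). It stayed between -1.05 and -0.61 when each library, the first WT library with its large small-RNA share among them, was left out in turn. At 6 months the difference was -0.31 (adjusted p = 1; -0.15 without the third WT library), and the change of the effect between ages was 0.47 ± 0.43 (adjusted p = 1; 0.30 to 0.74 with each library left out). Averaged over both ages it was -0.55 ± 0.22 (interval -1.02 to -0.08, adjusted p = 0.783). WT libraries differed by -0.57 ± 0.30 with age (adjusted p = 0.689).

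Gabpa shares 397 exonic bases with Atp5j, a subunit gene of ATP synthase on the other strand that was far more abundant. Atp5j had 1573, 2475 and 2487 FPKM in 3-month WT and 1521, 1766 and 1643 in 3-month KO, with a difference of -0.38 ± 0.27 (SE, adjusted p = 0.807). Both genes had lower means in KO at 3 months. The third WT library was the lowest for Gabpa, and for Atp5j it was near the second. Whether reads of Atp5j add to the Gabpa value was not tested. The partner subunits of GABP, Gabpb1 and Gabpb2, also had lower means in KO at 3 months. Gabpb1 averaged 35.5 FPKM ± 10.5 (SD, n = 3) for WT libraries and 19.6 ± 9.41 in KO, a difference of -0.90 ± 0.38 (SE, adjusted p = 0.73), and its 6-month difference was 0.01. Gabpb2 had 1.95, 1.46 and 2.15 FPKM in 3-month WT and 1.13, 0.912 and 0.819 in 3-month KO. At 6 months Gabpb2 had 3.34, 3.48 and 3.99 FPKM among WT libraries and 3.04, 2.26 and 1.42 among KO libraries. For Gabpb2 the KO libraries were under the WT libraries at both ages, by -0.54 and -0.53 (adjusted p = 0.768 and 1).

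Nrf1, a factor bound at many genes of respiration and of mitochondrial transcription (chromosome 6, 30047988 to 30153458, plus strand), had 14.3, 14.1 and 8.86 FPKM in 3-month WT and 10.9, 11.6 and 6.37 in 3-month KO. It had 11.3, 9.11 and 2.67 FPKM in 6-month WT and 8.99, 9.5 and 0.892 in 6-month KO. The groups overlapped, and library 3 was the lowest in all 4. KO minus WT was -0.35 ± 0.64 (SE, adjusted p = 0.927) at 3 months and -0.40 ± 0.64 (adjusted p = 1) at 6 months. The 3-month value was -0.10 without the third KO library and -0.56 without the third WT library. The 6-month value was 0.41 without the third KO library and -0.93 without the third WT library. Age differences were -0.77 ± 0.64 in WT (adjusted p = 0.804) and -0.83 ± 0.64 in KO (adjusted p = 0.789). They rested largely on the third 6-month libraries: the WT value was -0.24 without the third 6-month WT library, and the KO value was -0.02 without the third 6-month KO library. Over all libraries left out in turn, they ran from -1.11 to -0.24 in WT and from -1.25 to -0.02 in KO.

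The third libraries were thus opposite for Nrf1 and Ssbp1, a pattern chosen for description after the values were seen. Of all tested genes, 5.29% were lowest in library 3 of each group, as Nrf1 was, and 8.38% were highest there, as Ssbp1 was. A score, the mean log2(FPKM + 1) of the theca and stromal, blood and endothelial markers after each was centred on its mean over the 12 libraries, was also highest in library 3 of each group: 0.724 in 3-month WT, 1.91 in 3-month KO, 1.39 in 6-month WT and 2.21 in 6-month KO, against -1.42 to -0.204 in the other 8. The part of other cells in the Nrf1 and Ssbp1 values was not tested.

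**Figure D3:**
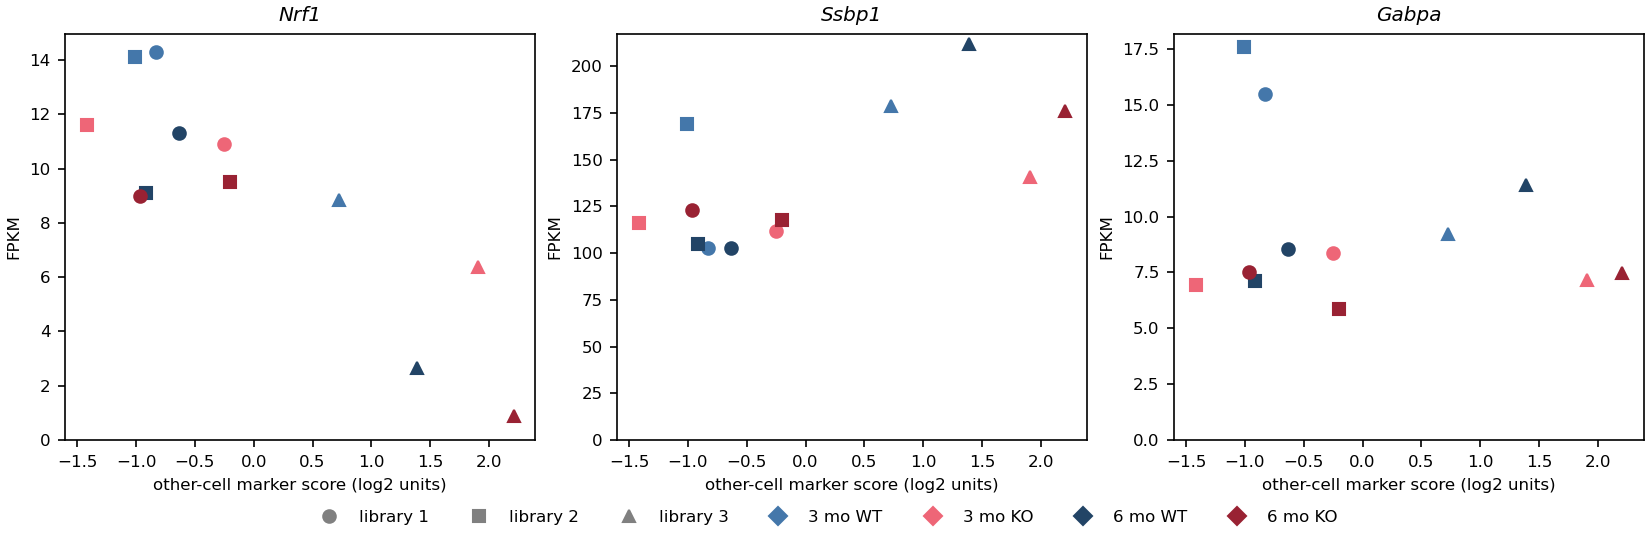
FPKM of Nrf1, Ssbp1 and Gabpa (vertical axes, linear) against the score of theca and stromal, blood and endothelial markers (horizontal axis, mean log2(FPKM + 1) after centring each marker on its mean over libraries) in the 12 libraries, coloured by group. The 4 libraries numbered 3 lie at the right; they are the lowest of their group for Nrf1 and the highest for Ssbp1, while for Gabpa they do not keep to one side.

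The PGC-1 coactivator genes were barely detected. Ppargc1a (chromosome 5, 51454250 to 51567726, minus strand) was listed at 0 in the 3-month WT libraries and at 0, 0.143 and 1.1 FPKM in 3-month KO. It was at 0.059, 0.00835 and 0.124 FPKM in 6-month WT and 0.0272, 0.0275 and 0.199 in 6-month KO. The 1.1 FPKM was in the third 3-month KO library, one of the 2 with the highest theca and stromal marker sums, and the part of those cells in it was not tested. Ppargc1b (chromosome 18, 61298136 to 61400431, minus strand) was at 0, 0.148 and 0.0775 FPKM in 3-month WT and 0, 0.13 and 0.0737 in 3-month KO. It was at 0.2, 0.366 and 0 FPKM in 6-month WT and 0.0495, 0.301 and 0.0213 in 6-month KO. A listed 0 can be a failed estimate, so no fold was taken. WT and KO overlapped at each age for both genes. With age in WT, each 6-month library of Ppargc1a was above the 3-month libraries, all listed at 0, but these values lie near the floor. The third family member, Pprc1, was detectable at 0.755 to 3.71 FPKM, and Esrra, the orphan receptor through which PGC-1 proteins often act, lay between 0 and 1.34 FPKM; both were named after their values were seen.

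Other genes of the pathway were read from 6 lists, none with a member past the adjusted threshold in any comparison. Of 18 tested among 25 coregulators, receptors and energy sensors, 8 were higher and 10 lower in KO at 3 months, with a median of -0.07. Groups did not overlap for 2 higher and 4 lower genes of these 18, beside 10.2% of all tested genes in either direction. At 6 months 10 were higher and 8 lower (median 0.02). With age, 11 were higher and 7 lower in WT (median 0.18), and 13 higher and 5 lower in KO (median 0.33). Kat2a, the acetyltransferase GCN5 that acts on PGC-1alpha, had 4.37, 4.21 and 6.92 FPKM in 3-month WT and 13.1, 10.3 and 10.2 in 3-month KO. At 6 months Kat2a had 9.69, 9 and 5.35 FPKM among WT libraries and 10.2, 12.4 and 14.5 among KO libraries, so KO was above WT at both ages, by 1.01 ± 0.31 (SE) and 0.59 (adjusted p = 0.664 and 1). Sirt1, the deacetylase with the opposite activity, averaged 10.3 FPKM ± 2.56 (SD, n = 3) in 3-month WT and 5.02 ± 0.839 in KO, a difference of -0.89 ± 0.34 (SE, adjusted p = 0.702) between groups that did not overlap. Yy1, a factor that works with PGC-1alpha, averaged 11.5 FPKM ± 3.55 in 3-month WT and 6.54 ± 1.18 in KO (difference -0.71, adjusted p = 0.747). Myc, a growth regulator of mitochondrial genes, averaged 50.2 FPKM ± 31.4 in 3-month WT and 9.42 ± 2.75 in 6-month WT, an age difference of -2.16 ± 0.65 (SE, adjusted p = 0.664). In KO Myc averaged 44 FPKM ± 11.9 at 3 months and 26.2 ± 20.7 at 6 months.

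Of 20 genes of mitochondrial RNA processing and decay, 14 were higher and 6 lower in KO at 3 months (median 0.25), and 10 were higher and 10 lower at 6 months (median 0.02). Lrpprc, which stabilises mitochondrial messenger RNAs, had 9.75, 7.38 and 7.19 FPKM in 3-month WT and 14.3, 23.1 and 19.1 in 3-month KO, a difference of 1.11 ± 0.27 (SE, adjusted p = 0.628) between groups that did not overlap. At 6 months Lrpprc averaged 10.1 FPKM ± 1.17 (SD, n = 3) for WT libraries and 11.8 ± 1.99 in KO, and the change of the effect between ages was -0.91 (limma adjusted p = 1). Elac2, which cuts the ends of mitochondrial transfer RNAs, averaged 5.59 FPKM ± 2.3 in 3-month WT and 10.9 ± 2.39 in KO (difference 0.90 ± 0.52 (SE), adjusted p = 0.774), again without overlap. At 3 months WT and KO did not overlap for 3 higher and 0 lower of the 20, beside 10.2% of all tested genes in either direction. At 6 months the Elac2 difference had the other sign, -0.42 (adjusted p = 1), and the change of the effect was -1.32 (adjusted p = 1); library 3 of 6-month KO was at 0.771 FPKM. With age, 7 of the 20 were higher and 13 lower in WT (median -0.16), and 5 higher and 15 lower in KO (median -0.43), where 49.2% of all tested genes were lower. Groups did not overlap with age in KO for 1 higher and 6 lower of the 20, beside 12.8% of all tested genes in either direction. Ptcd2, a pentatricopeptide protein of RNA maturation, averaged 34.9 FPKM ± 6.44 in 3-month KO and 18.2 ± 3.25 in 6-month KO (-0.90 ± 0.28 (SE), adjusted p = 0.745). In WT the age difference of Ptcd2 was -0.46 ± 0.28 (SE, limma adjusted p = 0.721). Mtpap, the mitochondrial poly(A) polymerase, averaged 25.6 FPKM ± 1.83 in 3-month WT and 11.7 ± 2.25 in 6-month WT (-1.08 ± 0.27 (SE), adjusted p = 0.664). In KO the age difference of Mtpap was -0.76 ± 0.27 (SE, limma adjusted p = 0.745).

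Of 20 genes of mitochondrial DNA copying, repair and nucleoid structure, 13 were higher and 7 lower in KO at 3 months (median 0.14), and 11 higher and 9 lower at 6 months (median 0.03). Top1mt, the topoisomerase that relaxes the circular genome, averaged 7.17 FPKM ± 0.818 (SD, n = 3) in 3-month WT and 13.6 ± 6.76 in KO, a difference of 0.75 (adjusted p = 0.747) without overlap. Primpol, a primase that restarts stalled forks, averaged 7.65 FPKM ± 1.75 in 3-month WT and 5.09 ± 0.998 in KO (-0.50), also without overlap. At 3 months WT and KO did not overlap for 3 higher and 1 lower of the 20, beside 10.2% of all tested genes in either direction. With age, 7 of the 20 were higher and 13 lower in WT (median -0.13), and 3 higher and 17 lower in KO (median -0.32). Rnaseh1, which removes RNA primers from mitochondrial DNA, averaged 13.6 FPKM ± 4.93 in 3-month WT and 6.47 ± 2.05 in 6-month WT (-0.95 ± 0.38 (SE), adjusted p = 0.664). In KO the age difference of Rnaseh1 was -0.50 ± 0.38 (SE, limma adjusted p = 0.788).

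Of 14 tested among 16 genes of mitochondrial nucleotide supply, 9 were higher and 5 lower in KO at 3 months (median 0.21), and 7 higher and 7 lower at 6 months (median -0.03). With age, 7 were higher and 7 lower in WT (median 0.01), and 5 higher and 9 lower in KO (median -0.29). Nme4, a nucleoside diphosphate kinase of mitochondria, averaged 16.5 FPKM ± 10.9 (SD, n = 3) in 3-month WT and 42.4 ± 20.5 in KO, a difference of 1.39 ± 0.48 (SE, adjusted p = 0.664) between groups that overlapped. At 6 months the Nme4 difference was 0.72 ± 0.48 (SE). Library 3 had the highest Nme4 value in each group, and the part of other cells in it was not tested. Slc25a33, a pyrimidine nucleotide carrier, averaged 64.6 FPKM ± 25.1 in 3-month WT, 34.8 ± 17 in 3-month KO and 21.6 ± 3.72 in 6-month WT. Its KO difference at 3 months was -0.91 (adjusted p = 0.73) and its age difference in WT -1.47 ± 0.41 (SE, adjusted p = 0.664). At 6 months the KO difference of Slc25a33 was 0.20 (adjusted p = 1), the change of the effect 1.11 (adjusted p = 1) and the age difference in KO -0.36 (adjusted p = 0.864). Of 8 genes of elongation and termination, 5 were higher and 3 lower at 3 months (median 0.21), and 6 higher and 2 lower at 6 months (median 0.21). With age, 3 were higher and 5 lower in WT (median -0.16), and 4 higher and 4 lower in KO (median 0.03). Tefm, the elongation factor of Polrmt, differed by 0.39 at 3 months and 0.73 ± 0.41 (SE) at 6 months (adjusted p = 1 at 6 months).

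Of 15 textbook targets of NRF1 and GABP outside the members, 4 were higher and 11 lower in KO at 3 months (median -0.12), and 10 higher and 5 lower at 6 months (median 0.13). With age, 6 were higher and 9 lower in WT (median -0.03), and 10 higher and 5 lower in KO (median 0.31). Cycs, cytochrome c, averaged 459 FPKM ± 191 (SD, n = 3) in 3-month WT and 288 ± 59.4 in KO, a difference of -0.61 ± 0.33 (SE, adjusted p = 0.768) between groups that overlapped. Another matrix protease, Lonp1, and the unfoldase partner of ClpP, Clpx, were read beside the members. Lonp1, which degrades Tfam, averaged 22.6 FPKM ± 13.1 in 3-month WT and 34.3 ± 5.74 in KO (0.72 ± 0.39 (SE), adjusted p = 0.768). Clpx averaged 26.8 ± 10.1 and 39.5 ± 16.5 in the same groups (0.52, adjusted p = 0.814). At 6 months Lonp1 averaged 20.5 FPKM ± 6.37 in WT and 23.7 ± 2.71 in KO. Clpx averaged 20 ± 1.87 and 20.6 ± 8.83 there. None of the 13 mitochondrially encoded messenger RNAs was used here, so no product of this machinery was measured.

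**Figure D4:**
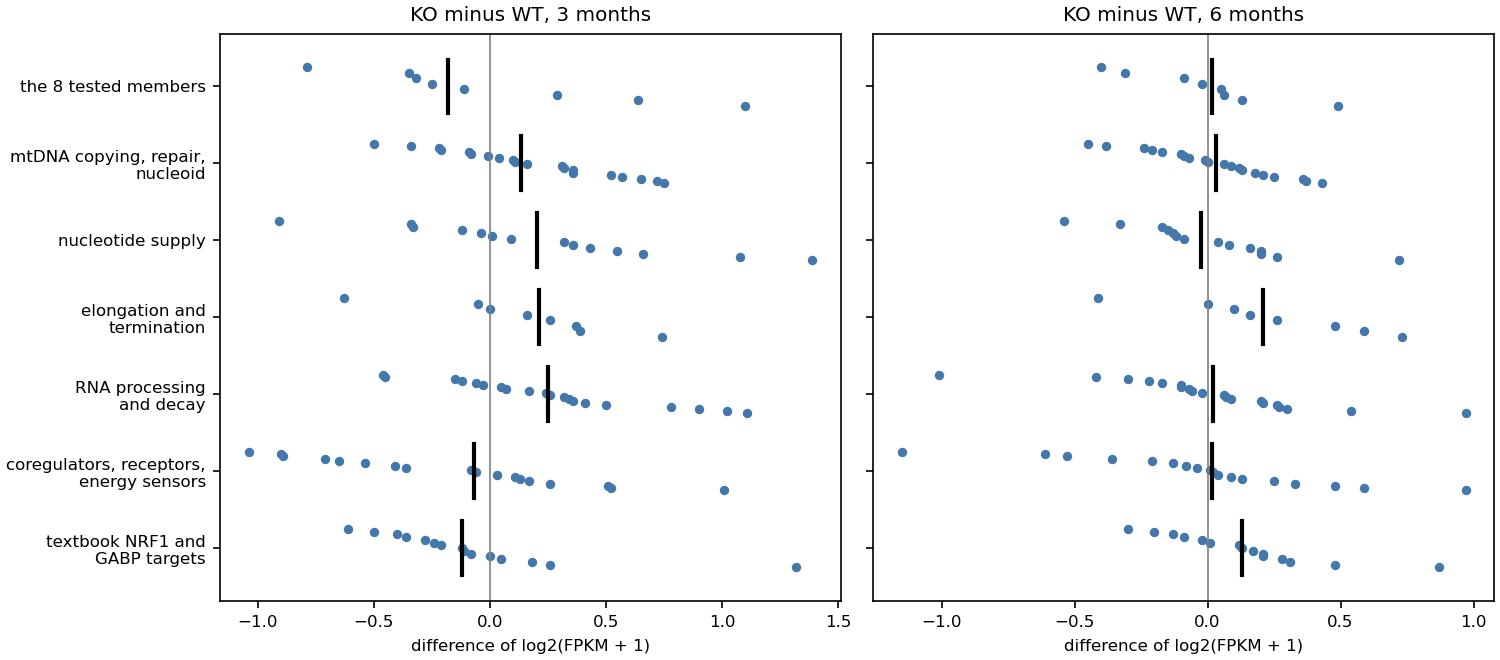
Log2 differences, KO minus WT on the log2(FPKM + 1) scale, of the 8 tested members and of the tested genes of 6 related lists at 3 months and at 6 months; each point is 1 gene and the black bar is the list's median. Medians lie between -0.18 and 0.25 at 3 months and between -0.03 and 0.21 at 6 months.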

How the data were processed

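RNA of 12 libraries was analysed. Per the labels' protocols, libraries were made by Smart-Seq2 and Nextera XT and read as paired ends. The deposited FPKM values were made by the authors with Cufflinks 1.2.1 after alignment with TopHat2 2.0.10 and Bowtie2 2.1.0 to GRCm38 (mm10), per the submitters' processing notes, which also name cutadapt, FastQC and SAMtools 0.1.18; the annotation and strand setting are not given in the sources used here. Total counts per library are unknown; FPKM hides depth, so a low value rests on few fragments. All per-sample columns were mapped by name, and no pair of the 66 held identical values.

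Genes with at least 1 FPKM in at least 3 libraries were tested on log2(FPKM + 1) with limma 3.58.1 in R 4.3.3 (4 group means over 12 libraries, moderated variance with a trend, Benjamini-Hochberg adjustment). The fit was tested on simulated data. The Polg2 to Polg ratio was compared by an exact permutation test within ages. Gene spans and overlaps are from GENCODE M21, in which all 10 names matched, and promoters from RefSeq (GRCm38.p6). The members and lists were chosen with earlier results of these data known. Named genes were Clpp, all members and, of each related list, up to 3 with the smallest unadjusted p for KO against WT at each age and up to 1 for each age comparison; of these, the genes printed were selected with their values in view. Pprc1 and Esrra fall outside the rule, and overlapping genes were named from the annotation.

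The labels number libraries 1 to 3 in each group. Same-numbered libraries deviated together between WT and KO at 6 months (correlations 0.16, 0.37 and 0.47) and between ages in KO (0.11, 0.39 and 0.65), but not in every pair for the other comparisons (0.09, -0.02 and 0.21 at 3 months; 0.03, 0.03 and 0.28 with age in WT). This pairing comes from the data alone, and it is weak: in both comparisons library 1 of one group correlated better with library 2 of the other than with its own number. Alternatives were other pseudocounts (0.1 and 0.5), filters, scalings, the replicate block, only the libraries compared, and each library left out; leaving out the 3 libraries highest in markers of other cells was added after seeing the data.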

Additional observations from a re-analysis of the deposited data

How the results depend on the processing

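Members past the adjusted threshold numbered 0 in all 6 comparisons under each of the 22 alternatives, 12 of which leave out 1 library, and also with the replicate block (0). The smallest adjusted p of a member under any alternative was 0.253. Of the 48 member differences, 25 kept their sign under every alternative run and 23 changed sign under at least 1, 15 of them only when a library was left out; the cause was not tested. The Polg2 to Polg difference kept its direction and stayed between 0.19 and 0.67.

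The 3 libraries highest in markers of other cells were the third of 3-month KO, of 6-month WT and of 6-month KO. The third 3-month WT library, with a score of 0.724, was kept, so the 3-month comparison lost a KO library and no WT library. Without those 3 libraries, log2 differences turned to 0.07 for Tfam at 3 months, 0.01 for Tfam averaged over ages, -0.11 for Tfam in the change of the KO effect, -0.05 for Polrmt at 6 months, and, with age in KO, 0.04 for Tfb2m and -0.08 for Polrmt. Scaling by median ratios gave -0.03 for Tfam in the change of the KO effect. Quantile scaling gave 0.01 for Polrmt in that change and 0.05 for Ssbp1 with age in WT.

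When each library was left out, differences at 3 months ran from -0.23 to 0.07 for Tfam. At 6 months they ran from -0.17 to 0.03 for Tfam, -0.03 to 0.38 for Tfb2m, -0.23 to 0.10 for Polg, -0.10 to 0.20 for Polg2, -0.13 to 0.39 for Ssbp1 and -0.93 to 0.41 for Nrf1. Averaged over ages they ran from -0.22 to 0.04 for Tfb2m, 0.00 to 0.25 for Polg, -0.23 to 0.07 for Ssbp1 and -0.64 to 0.03 for Nrf1. For the change of the KO effect they ran from -0.16 to 0.14 for Tfam, -0.44 to 0.05 for Polrmt and -0.59 to 0.76 for Nrf1. With age in WT they ran from -0.51 to 0.72 for Polg2 and -0.49 to 0.03 for Ssbp1. With age in KO they ran from -0.39 to 0.13 for Tfb2m, -0.05 to 0.41 for Polrmt, -0.07 to 0.39 for Polg, -0.03 to 0.26 for Ssbp1 and -0.15 to 0.00 for Gabpa.

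Over all tested genes the number past the threshold was 1, 3, 2, 1, 1 and 2 in the order of the report. It ran over the left-out libraries from 0 to 10 at 3 months, 2 to 3 at 6 months, 1 to 6 for the average, 0 to 4 for the change of the effect, 1 to 10 with age in WT and 2 to 3 with age in KO. With the other alternatives it ran from 0 to 1, 2 to 3, 1 to 2, 0 to 1, 1 to 2 and 2 to 4. Polg and Polrmt did not pass the filter at 5 FPKM, which thus tested 6 members, and the fit on only the libraries compared gives no value for the average or the change of the effect. With 3 mice a group the intervals of the members were wide, so a missed threshold does not show that levels were alike, and for genes near 1 FPKM the pseudocount sets much of the size.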
